A study of Mus musculus with 4 samples.

Results

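The TAM receptors are 3 related receptor tyrosine kinases, Tyro3, Axl and Mertk, which are known here by their gene symbols and which share 2 ligands, Gas6 and Pros1 (protein S). The abbreviation has nothing to do with tumor-associated macrophages. These 5 genes were taken from the 31053 genes of the deposited matrices by symbol, and each matched exactly 1 gene. The data are single-cell RNA-seq libraries of bone marrow (BM) macrophages of male C57BL/6J mice, aged 4 weeks (4 to 6 weeks over all experiments of the study), grown with M-CSF at 30 ng/mL for 4 days, and no genetic change was made in these cells. Efferocytic macrophages were F4/80+CFSE+ cells sorted after 16–18 h with UV-killed RM1 prostate cancer cells that carried the dye CFSE. Non-efferocytic macrophages were F4/80+ cells. The study calls them non-engulfing in its results and macrophages alone in its discussion, so it is not clear whether they met RM1 cells. Exposure to RM1 cells may thus differ between the groups along with engulfment. Each group was sequenced in Experiment 1 and in Experiment 2, so there were 2 libraries per group and 4 in all. A sort by dye takes cells that hold dye, whether they have digested the apoptotic cell or not, and while the methods of the study speak of several independent mice per group for its experiments with BM macrophages, they do not say how many gave each library.

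Gas6 and Pros1 are secreted proteins that bridge the dying cell and the phagocyte. One end of each, the Gla domain, binds phosphatidylserine on the apoptotic membrane once its glutamates have been gamma-carboxylated in a vitamin K-dependent step, and the other end binds the receptor. Mertk is the receptor known for the uptake of apoptotic cells by resting and anti-inflammatory macrophages, Axl is the one that interferon and inflammatory signals induce, and Tyro3 is found mainly in the nervous system. Gas6 binds all members of the receptor family, while Pros1 binds Mertk and Tyro3. Receptor activation feeds PI3K, Rac and phospholipase C signaling and also dampens cytokine responses through Socs proteins.

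In the GRCm38 annotation (GENCODE vM21), Mertk lies at chr2:128698956-128802894 on the plus strand, Axl at chr7:25757273-25788705 on the minus strand, Tyro3 at chr2:119797733-119818104 on the plus strand, Gas6 at chr8:13465374-13494490 on the minus strand and Pros1 at chr16:62854307-62929346 on the plus strand. The longest transcript models hold 19, 20, 20, 15 and 15 exons in that order. UMIs of this 3′ kit count transcript ends by strand, so levels do not grow with transcript length and can be set beside each other. The last 1000 bases of the transcripts shared no stretch of 50 bases with a transcript of any other gene. Gas6 overlaps Tmem255b, which runs on the opposite strand, at its 3′ end, and Mertk overlaps the antisense gene Gm14011.

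The promoters of the receptor and ligand genes whose levels were lower in efferocytic cells, Mertk, Axl and Pros1, are shown here as sequence alone. Each is the 250 bases before the RefSeq start (GRCm38.p6), written 5′ to 3′ on the strand of the gene, at chr2:128698665-128698914 (plus), chr7:25788734-25788983 (minus) and chr16:62854057-62854306 (plus). Capitals mark the GC box GGGCGG on either strand, the sequence that Sp1 is known to bind.
Mertk: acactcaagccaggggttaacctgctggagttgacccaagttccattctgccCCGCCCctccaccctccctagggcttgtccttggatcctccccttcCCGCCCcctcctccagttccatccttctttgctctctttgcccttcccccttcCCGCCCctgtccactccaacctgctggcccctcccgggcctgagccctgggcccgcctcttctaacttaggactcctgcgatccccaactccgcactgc
Axl: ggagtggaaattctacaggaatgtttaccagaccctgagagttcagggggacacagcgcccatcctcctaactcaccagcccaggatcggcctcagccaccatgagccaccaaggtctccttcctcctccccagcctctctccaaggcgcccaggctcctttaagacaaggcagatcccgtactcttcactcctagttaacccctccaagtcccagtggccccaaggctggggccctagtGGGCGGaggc
Pros1: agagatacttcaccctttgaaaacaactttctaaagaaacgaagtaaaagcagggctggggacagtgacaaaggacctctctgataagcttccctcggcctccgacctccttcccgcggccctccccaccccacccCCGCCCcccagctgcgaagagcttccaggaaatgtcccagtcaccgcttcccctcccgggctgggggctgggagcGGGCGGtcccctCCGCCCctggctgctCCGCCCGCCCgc
The GC box occurred 3 times before Mertk, once before Axl and 5 times before Pros1, with matches that share letters each counted. Tyro3 held 3 and Gas6 held 4, and 32.7% of the 32851 promoters of this length held at least 1. The core letters of a hypoxia-inducible factor (HIF) element, ACGTG or GCGTG, occurred in the Tyro3 window alone of the 5, once, against 38.6% of all promoters. The interferon element, read as GAAA, any 2 bases and GAAA again, occurred in none of the 5 and in 2.98% of all promoters, and the nuclear receptor half-site AGGTCA in none of the 5 and in 14.0% of all promoters. These matches describe letters in a short window and say nothing of binding.

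Applying the thresholds that the study states (at least 200 genes, at least 1000 UMIs, at most 10% mitochondrial UMIs) to all deposited barcodes left 6695 to 13411 cells and 101216659 to 155224183 UMIs per library. The study lists fewer cells for every library, so its cells and those used here differ. Efferocytic cells held more UMIs, with a median of 17171 and 17475.5 per cell against 11146 and 9600 in non-efferocytic cells of Experiments 1 and 2, where cells of clusters with few UMIs made up 4.29% and 5.11% against 5.58% and 19.5%. Among macrophage-like cells the medians were 18196.5 and 17994.5 against 11537 and 10451. How far this reflects RNA content was not tested. Of 13869 genes tested, 38.9% were called at an adjusted p under 0.05 (edgeR quasi-likelihood test, experiment as a block), 19.9% higher and 19.0% lower in efferocytic cells. Scaling to library totals instead of TMM gave 1847 genes higher and 3700 lower in place of 2761 and 2636, and moved the median over all genes from -0.02 to -0.12 on the log2 scale. Counting UMIs per cell gave 6921 higher and 586 lower, with a median of 0.60. The 2 libraries of Experiment 2 shared 118 cell barcodes, where other pairs of libraries shared 14 to 23. The 10 macrophage markers were all detected in every library, but their sum too was lower in efferocytic cells, at 33034 and 25115 CPM against 41298 and 35562 CPM. The part of this shift in the levels of the members was not tested. The markers of other cells moved with the groups as well. The 9 neutrophil lineage markers summed to 3046 and 3339 CPM in the non-efferocytic libraries against 953 and 705 CPM in the efferocytic ones, the 7 fibroblast markers to 146 and 122 against 46.6 and 52.9 CPM, and the 5 monocyte markers to 68.8 and 77.8 against 26.0 and 15.8 CPM, with every gene of these lists detected in every library.

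Relative to all transcripts, efferocytic libraries held less Mertk, Axl and Pros1, while Gas6 did not pass the test and Tyro3 was too rare to be tested. In the fit per cell of any class the direction turned for Mertk and Pros1, and Axl stood at -0.00069 on the log2 scale. In macrophage-like cells alone, Mertk and Axl per cell were higher in efferocytic cells of both experiments, and Pros1 in those of Experiment 1 only. That class leaves out a cluster of Experiment 2 with macrophage markers that was led by MHC class II genes and Ccr2. It held 41.4% of the Axl UMIs of the non-efferocytic library and 6.98% of those of the efferocytic one. Of the 4 members tested, 3 were called lower and none higher, against 19.0% and 19.9% of all genes. Gas6 was by far the most abundant member on the CPM scale (UMIs of the gene per 1000000 UMIs in cells), followed by Mertk, Pros1 and Axl. Mertk made up 71.9% to 78.1% of the receptor UMIs of a library, and Gas6 91.6% to 95.7% of the ligand UMIs. Receptor UMIs summed to 88.7 and 73.1 CPM in the non-efferocytic libraries of Experiments 1 and 2 against 69.7 and 49.9 CPM in the efferocytic ones, and ligand UMIs to 473 and 407 against 421 and 495 CPM. Leaving out the barcodes shared in Experiment 2 gave edgeR adjusted p of 0.0484 for Mertk, 0.00631 for Axl and 0.00469 for Pros1, so all 3 still passed. Leaving out the neutrophil-like and fibroblast-like clusters gave log2 fold changes of -0.30 for Mertk (edgeR adjusted p = 0.0251), -0.55 for Pros1 (edgeR adjusted p = 0.00327) and 0.16 for Gas6 (edgeR adjusted p = 0.332).

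Mertk stood at 66.2 CPM (95% Poisson interval 64.6–67.8) in the non-efferocytic library of Experiment 1 and at 54.2 CPM (52.9–55.5) in the efferocytic one. In Experiment 2 it stood at 52.5 CPM (51.3–53.8) and 38.9 CPM (37.9–39.9). Both efferocytic libraries lay below the non-efferocytic library of their own experiment, but the efferocytic library of Experiment 1 lay above the non-efferocytic library of Experiment 2, so the groups overlapped across experiments. The group means were 59.4 ± 9.62 CPM (SD, n = 2) and 46.6 ± 10.8 CPM (SD, n = 2). The log2 fold change was -0.25 (SE 0.084, edgeR quasi-likelihood test with Benjamini-Hochberg adjustment, adjusted p = 0.0444), close to the threshold. Without the replicate block the adjusted p was 0.444, and with DESeq2 it was 0.136. Fits that left out 1 library have 1 library in an arm, which is assumed to vary like the 2 of the other group. Without the efferocytic library of Experiment 2, and with no block, the log2 fold change was 0.02 (edgeR adjusted p = 0.944), and without the non-efferocytic library of Experiment 1 it was -0.06 (edgeR adjusted p = 0.910).

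Axl stood at 22.5 CPM (21.6–23.4) in non-efferocytic and 15.5 CPM (14.8–16.2) in efferocytic macrophages of Experiment 1, and at 20.5 CPM (19.7–21.2) and 10.9 CPM (10.4–11.4) in those of Experiment 2. Here both efferocytic libraries lay below both non-efferocytic ones. The group means were 21.5 ± 1.43 CPM (SD, n = 2) and 13.2 ± 3.24 CPM (SD, n = 2). Axl fell by 0.62 on the log2 scale (SE 0.11, edgeR adjusted p = 0.00433), the largest change of a member tested in the fit of all cells. In macrophage-like clusters alone Axl stood at -0.38 and Pros1 at -0.53. Without the replicate block the edgeR adjusted p of Axl was 0.102. With 10% free RNA removed from each library the log2 fold change was -0.70, larger in size, with an edgeR adjusted p of 0.0550. Fits that left out 1 library, with no block, gave -0.91 to -0.32, and the one without the efferocytic library of Experiment 1 alone passed (edgeR adjusted p = 0.0143). The level of Axl in free RNA, taken from barcodes under 100 UMIs, was 23.3, 16.3, 36.6 and 27.0 CPM in the non-efferocytic and efferocytic libraries of Experiment 1 and then of Experiment 2, at or above the level in the cells of every library. For Mertk, free RNA held less than cells, at 23.5 to 31.7 CPM.

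Axl was also the main receptor in the clusters led by collagen genes, called fibroblast-like here. The 33, 21, 37 and 21 fibroblast-like cells of the libraries, in the same order, held Axl at 176, 137, 199 and 143 CPM, which came to 10.4%, 4.29%, 8.15% and 7.40% of all Axl UMIs. These clusters also held the genes expected in RM1 cells at 1065 and 1270.4 CPM in Experiments 1 and 2, against 17.1 to 80.97 CPM in the 19 macrophage clusters described further on, and RM1 is itself described as fibroblast-like. The highest level of that list, 6813 CPM, was in an unnamed cluster of Experiment 2 led by Nupr1 and Socs3, with a median of 1528.5 UMIs in 78 non-efferocytic and 28 efferocytic cells. It held Axl at 67.8 CPM from 28 UMIs and 3 UMIs of Tyro3. Whether any of these are RM1 cells was not tested. Fibroblast markers were lower in the efferocytic libraries, as given above. With the neutrophil-like and fibroblast-like clusters left out the log2 fold change of Axl was -0.61 (edgeR adjusted p = 0.00849), close to the value with them. In macrophage-like clusters alone it was -0.38 (edgeR adjusted p = 0.0166), at 20.6 and 13.4 CPM without and 15.3 and 9.45 CPM with engulfed dye. That fit also leaves out the cells of few UMIs and 2 clusters with a monocyte marker among their leading genes. One of these 2 clusters, led by MHC class II genes and Ccr2 in Experiment 2, held 41.4% of the Axl UMIs of the non-efferocytic library (2134 cells) and 6.98% of those of the efferocytic one (83 cells).

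Tyro3 was near the limit of detection. It gave 4, 3, 14 and 6 UMIs among 101216659 to 155224183 UMIs per library, from 4 to 14 cells in 3 libraries and from 3 cells in the efferocytic library of Experiment 1. The ratio of efferocytic to non-efferocytic levels was 0.607 in Experiment 1 (95% counting interval 0.0890–3.59) and 0.382 in Experiment 2 (0.120–1.06), so a difference was not detectable at this depth. Fibroblast-like cells held 3 of the 4, none of the 3, 7 of the 14 and 2 of the 6 Tyro3 UMIs. When genes with low counts were kept in the edgeR fit, Tyro3 had a log2 fold change of -1.04 with an adjusted p of 0.364.

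Pros1 stood at 34.1 CPM (33.0–35.3) in non-efferocytic and 23.7 CPM (22.9–24.6) in efferocytic macrophages of Experiment 1, and at 34.2 CPM (33.2–35.2) and 21.2 CPM (20.5–22.0) in those of Experiment 2. The non-efferocytic libraries were nearly the same, and both efferocytic libraries lay below them. The group means were 34.2 ± 0.0364 CPM (SD, n = 2) and 22.5 ± 1.75 CPM (SD, n = 2). Pros1 fell by 0.50 on the log2 scale (SE 0.087, edgeR adjusted p = 0.00343), a level 1.41-fold higher in non-efferocytic cells, and passed without the replicate block too (edgeR adjusted p = 0.0382). Fits that left out 1 library, with no block, gave -0.61 to -0.38, and again the one without the efferocytic library of Experiment 1 alone passed (edgeR adjusted p = 0.0211).

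Gas6 stood at 439 CPM (435–443) in non-efferocytic and 398 CPM (394–401) in efferocytic macrophages of Experiment 1, but at 372 CPM (369–376) and 474 CPM (470–477) in those of Experiment 2. On the CPM scale the experiments thus went in opposite directions, with log2 ratios of -0.14 and 0.35, each beyond counting error. The group means were 406 ± 47.3 CPM (SD, n = 2) and 436 ± 53.9 CPM (SD, n = 2), and the fitted log2 fold change was 0.21 (SE 0.12, edgeR adjusted p = 0.212). That fit uses TMM scaling, and with library totals, close to the scale of CPM, it gave 0.10 (edgeR adjusted p = 0.475). No ratio of a single experiment was computed with TMM scaling, so the direction in Experiment 1 on that scale is not known. Per cell of any class Gas6 was 1.38 times as high in the efferocytic library of Experiment 1, opposite to its direction in CPM.

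**Figure D1:**
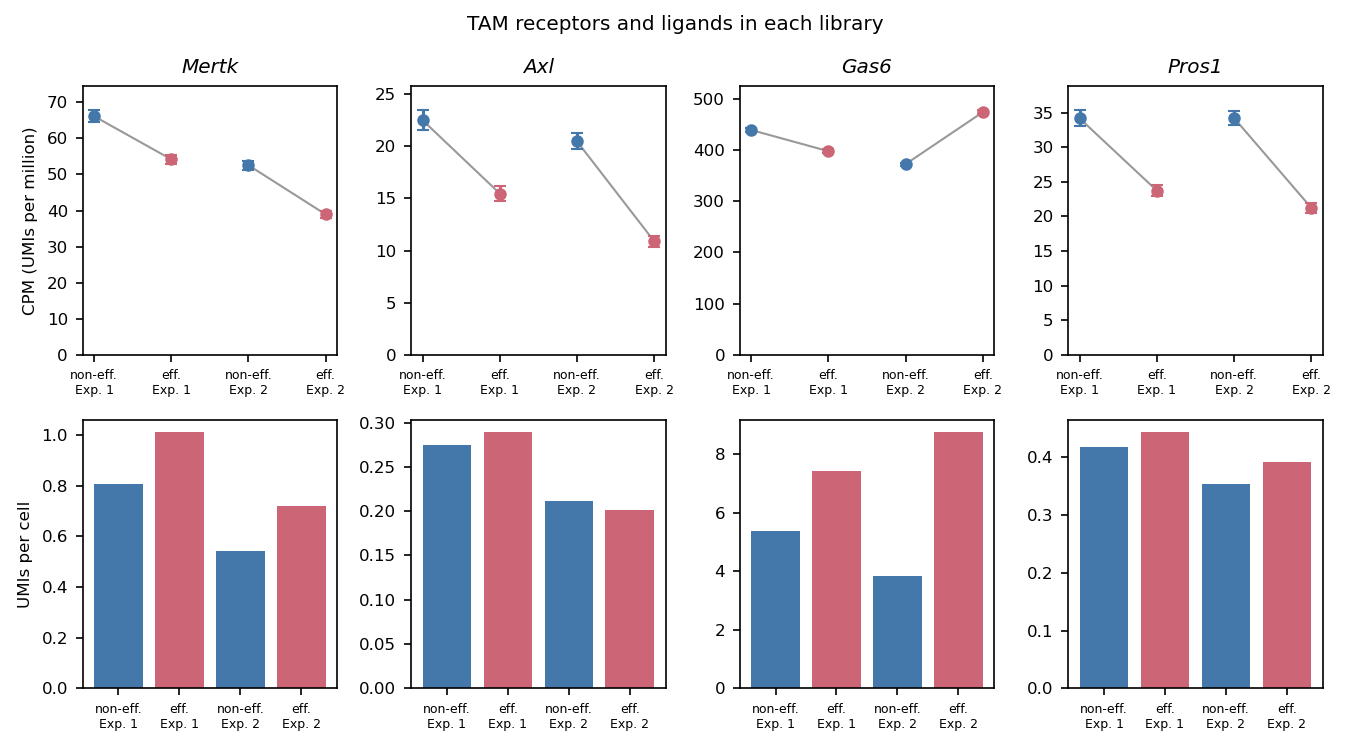
Upper row: CPM (UMIs of the gene per 1000000 UMIs in cells) of Mertk, Axl, Gas6 and Pros1 in each library, blue for non-efferocytic and red for efferocytic, with 95% Poisson intervals and lines joining the libraries of an experiment. Lower row: UMIs of the gene per cell in the same libraries. Mertk, Axl and Pros1 go down in CPM in both experiments and Gas6 goes down in Experiment 1 and up in Experiment 2. UMIs per cell of Gas6, Mertk and, by less, Pros1 are higher in both efferocytic libraries.

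The picture per cell differed from the picture in CPM, since efferocytic cells held more UMIs of most genes. A cell of any class held on average 5.37 and 3.84 UMIs of Gas6 in non-efferocytic and 7.42 and 8.75 in efferocytic libraries of Experiments 1 and 2, which is 1.38 and 2.28 times as many. Mertk per cell was 1.25 and 1.33 times as high in efferocytic cells, Pros1 1.06 and 1.11 times and Axl 1.05 and 0.952 times. These means include the cells of clusters with few UMIs. In macrophage-like cells alone Gas6 stood at 5.66 and 4.95 against 7.99 and 9.29 UMIs per cell, which is 1.41 and 1.88 times as many, and the ratios were 1.26 and 1.16 for Mertk, 1.16 and 1.14 for Axl and 1.09 and 0.988 for Pros1. In Experiment 2 this class held 1358 Axl UMIs in 8501 non-efferocytic and 1433 in 7852 efferocytic cells. It leaves out the MHC class II and Ccr2 cluster, with 1173 Axl UMIs in 2134 non-efferocytic and 118 in 83 efferocytic cells. The Axl ratio of 1.14 thus holds only without that cluster's cells. With counts scaled to the number of cells, the log2 fold change of Gas6 was 0.83 (edgeR adjusted p = 1.25e-05) and passed, while Mertk at 0.36 (edgeR adjusted p = 0.204), Pros1 at 0.12 (edgeR adjusted p = 0.714) and Axl at -0.00069 (edgeR adjusted p = 0.998) did not. On that scale the median of all genes was 0.60, so Gas6 lay above it and the other members below it. With the clusters of few UMIs left out as well, Gas6 had a log2 fold change of 0.73 (edgeR adjusted p = 4.68e-13) and Mertk one of 0.26 that passed, as higher (edgeR adjusted p = 0.0384), while Axl at -0.12 (edgeR adjusted p = 0.435) and Pros1 at 0.01 (edgeR adjusted p = 0.952) did not, against a median of 0.50 over all genes. In these per-cell fits edgeR gave genes of like level 1 common spread (infinite prior degrees of freedom), so their p-values do not rest on the spread of the gene itself.

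**Figure D2:**
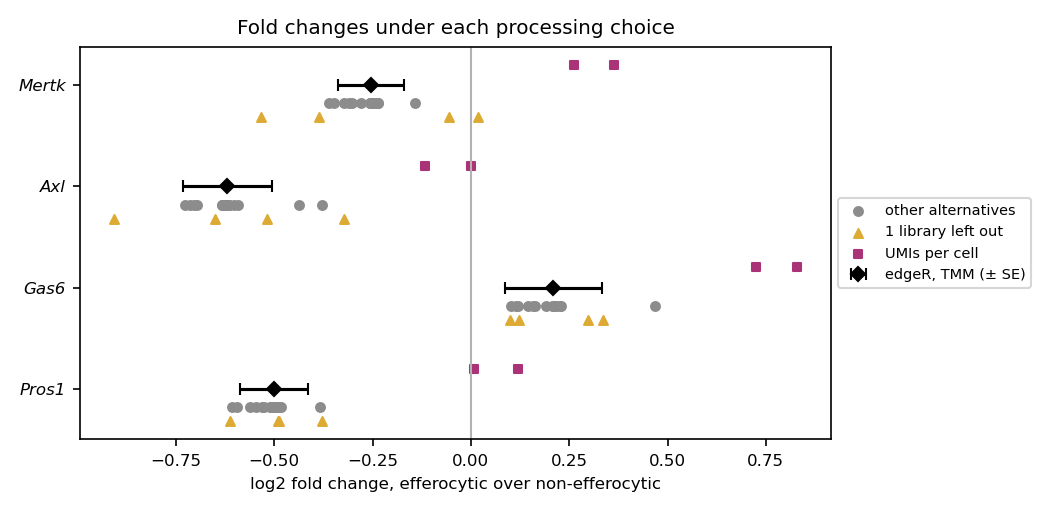
Log2 fold change of efferocytic over non-efferocytic libraries for each member tested. Black diamonds are the edgeR estimates with TMM scaling and their standard errors, grey circles other processing choices, yellow triangles fits without 1 library and purple squares counts scaled to the number of cells, of all cells and without clusters of few UMIs. Axl and Pros1 stay below 0 except per cell, where Pros1 is at 0.12 and 0.01 and Axl at 0 and -0.12, and Mertk lies above 0 in the per-cell fits and in the fit that lacks the efferocytic library of Experiment 2.

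Within each library the levels also moved with the number of UMIs of a cell. In the 25% of cells with the fewest UMIs Mertk stood at 93.8, 69.8, 74.6 and 50.8 CPM in the non-efferocytic and efferocytic libraries of Experiment 1 and then of Experiment 2, and in the 25% with the most UMIs at 52.8, 46.7, 42.0 and 33.5 CPM. Pros1 and Gas6 were lower in the richest than in the poorest cells of every library as well. Axl did not share this, and stood at 20.2, 14.7, 17.1 and 9.52 CPM in the poorest and at 24.3, 16.5, 22.7 and 10.7 CPM in the richest cells.

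**Figure D3:**
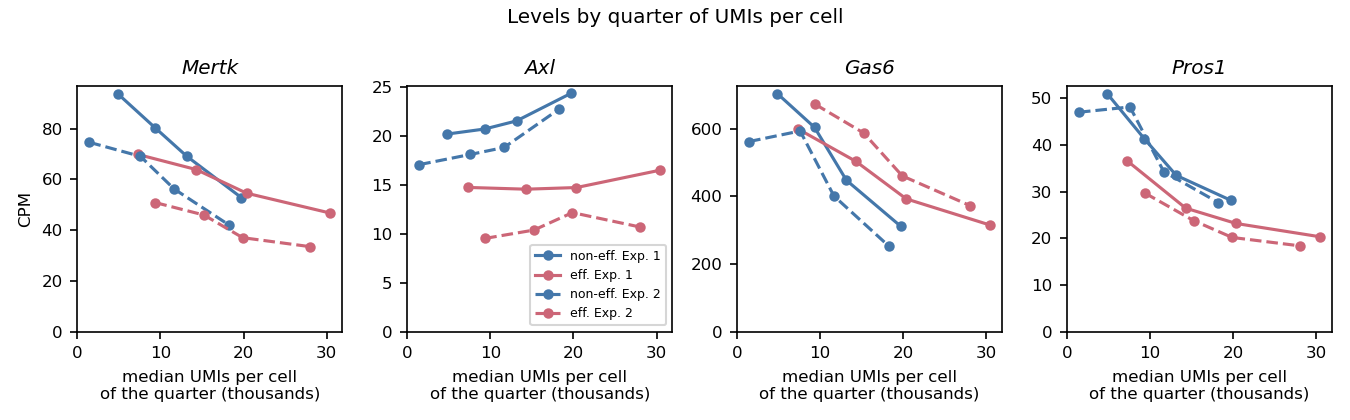
CPM of each member (vertical axis) in 4 equal groups of cells by UMIs per cell, 25% each, against the median UMIs of the group in units of 1000 (horizontal axis), blue for non-efferocytic, red for efferocytic, solid for Experiment 1 and dashed for Experiment 2. Mertk, Gas6 and Pros1 are lower in the richest group than in the poorest, and the efferocytic lines of Axl lie below the non-efferocytic lines of their experiment over the whole range.

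Cells of 10000 to 20000 UMIs were therefore compared, a range that holds cells of every library (2738 to 5154 cells, with medians of 13421 to 15398 UMIs). Medians of whole libraries were 11146 and 9600 in non-efferocytic against 17171 and 17475.5 UMIs in efferocytic cells. The range thus takes cells of higher rank by UMIs from the non-efferocytic libraries than from the efferocytic ones. The part of this in the ratios was not tested. In this range Gas6 was higher in efferocytic cells of both experiments, at 482 against 426 CPM in Experiment 1 and at 569 against 334 CPM in Experiment 2. The difference passed the test in these cells, with a log2 fold change of 0.47 (edgeR adjusted p = 0.0163). The experiments did not go the same way in every range. Among cells of 5000 to 10000 UMIs Gas6 stood at 633 CPM (95% Poisson interval 613–652) in efferocytic against 658 CPM (646–669) in non-efferocytic cells of Experiment 1, lower though with overlapping intervals, and at 743 against 580 CPM in Experiment 2. Among cells of 20000 to 40000 UMIs it was higher in efferocytic cells of both, at 344 against 298 CPM and at 393 against 236 CPM. Axl stood at 22.6 and 20.8 CPM in non-efferocytic cells against 15.9 and 11.4 CPM in efferocytic cells, and fell by 0.70 on the log2 scale (edgeR adjusted p = 0.000705). Pros1 stood at 32.8 and 31.8 against 26.1 and 23.7 CPM and fell by 0.38 on the log2 scale (edgeR adjusted p = 0.00711). Mertk stood at 66.5 and 50.6 against 62.2 and 44.6 CPM, a log2 fold change of -0.14 that did not pass (edgeR adjusted p = 0.235). This comparison was added after the data had been seen.

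The share of cells with at least 1 UMI was compared after thinning each cell to 5000 UMIs, which left out 505 to 3404 cells per library. Mertk was then detected in 28.4% (95% exact interval 27.3–29.4%) and 24.7% (23.6–25.8%) of the non-efferocytic and efferocytic cells of Experiment 1, and in 23.6% (22.8–24.4%) and 17.7% (16.9–18.6%) of those of Experiment 2. Without thinning the order was the reverse, at 48.7% and 55.5% and at 36.1% and 45.8%. Axl was detected in 7.95% and 5.58% and in 7.77% and 4.45% of thinned cells, Pros1 in 16.1% and 12.0% and in 16.3% and 10.1%, and Gas6 in 78.8% and 78.4% and in 74.3% and 81.6%. Unthinned, Axl was found in 14.4% and 14.0% and in 11.8% and 10.9% of cells, Pros1 in 30.9% and 32.3% and in 26.7% and 29.3%, and Gas6 in 89.5% and 91.9% and in 79.8% and 92.1%. For comparison, the 22 to 120 neutrophil-like cells of a library, whose median was 15819 to 20669 UMIs, had a UMI of Gas6 in 25% to 42.7% of cells, of Mertk in 4.55% to 22.7% and of Pros1 in 4.55% to 15%. Their clusters also held the macrophage markers, at 15061 to 20843 CPM. Whether these UMIs come from free RNA, from doublets or from the cells themselves was not tested. For Axl the share in neutrophil-like cells was 0% to 8.33%, against 10.9% to 14.4% of all cells, which held fewer UMIs than the neutrophil-like ones in every library.

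A receptor and a ligand of the family were found together in 29.2%, 24.4%, 24.0% and 18.5% of thinned cells of the 4 libraries, in the order of Experiment 1 and then Experiment 2, and a ligand without a receptor in 52.6%, 56.3%, 53.9% and 64.6%. In each experiment the efferocytic library held fewer cells with both and more with a ligand alone. Gas6 was found in 82.3% to 88.4% of thinned cells with a Mertk UMI and in 71.8% to 80.1% of those without. For Axl the order was opposite in every library, with Gas6 in 60.7% to 72.9% of cells with an Axl UMI and in 75.4% to 82.1% of those without. Mertk and Axl were found together in 2.28%, 1.40%, 1.63% and 0.709% of thinned cells. Cells of 1 library are not replicates, so these shares carry no test.

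Clusters of cells showed where the receptors differed most from each other. The cells of each experiment were clustered with the 5 members left out of the genes used, and 19 clusters of at least 50 cells carried the macrophage markers and were not among the clusters of few UMIs. They are named here by their leading genes, and their levels are given over both libraries of an experiment together. Axl ranged over them from 1.26 CPM (9 UMIs, 95% Poisson interval 0.576–2.39, Experiment 2) to 42.5 CPM (547 UMIs, 39.0–46.2, Experiment 1), while Mertk ranged 5.43-fold from 15.4 to 83.7 CPM, Pros1 6.03-fold from 7.78 to 46.9 CPM and Gas6 4.61-fold from 141 to 651 CPM. A further 5 clusters with these markers had a median of 1158 to 1800.5 UMIs per cell and were left out. In them Mertk ranged more widely, from 11.7 to 154 CPM, with the highest value in 838 cells of Experiment 2 led by Malat1, Gm26917 and Lilrb4a, while Axl ranged from 5.63 to 18.6, Pros1 from 8.79 to 47.1 and Gas6 from 289.9 to 627 CPM. Axl was highest in the clusters led by interferon-induced genes, at 42.5 CPM (Ifit2, Rsad2, Ifit3; Experiment 1) and 36.5 CPM (Cxcl10, Ifit1, Ifit2; Experiment 2), and in a cluster of Experiment 2 led by MHC class II genes and Ccr2, at 42.0 CPM. This last cluster has a monocyte marker among its leading genes and so was not called macrophage-like. Axl was lowest, at 1.26 to 5.84 CPM, in clusters led by Cav1 and Ifrd1, by Cdkn1c and Pdpn and by Prss46 and Slpi.

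Among the 19 clusters Mertk, Pros1 and Gas6 were highest together in those that Hpgd marks. In Experiment 1 that cluster held Mertk at 83.7, Pros1 at 42.4 and Gas6 at 602 CPM, and in Experiment 2 at 77.3, 46.9 and 651 CPM, where Axl was at 17.4 and 12.6 CPM. The interferon cluster of Experiment 1 held Mertk at 82.2 CPM, close to the Hpgd cluster, while that of Experiment 2 held it at 54.8 CPM. Most cells of these clusters were non-efferocytic, and within the efferocytic libraries the order was not the same for every gene. In Experiment 1 Mertk stood at 74.2 CPM (62.9–86.9) in 155 efferocytic cells of the Hpgd cluster and at 85.1 CPM (72.2–99.7) in 110 of the interferon cluster, with overlapping intervals. In Experiment 2 Pros1 stood at 29.8 CPM (17.6–47.0) in 50 efferocytic cells of the Hpgd cluster and at 35.3 CPM (26.0–46.8) in 83 of the MHC class II cluster. With finer clusters (Leiden resolution 1.0) the peak of Experiment 1 moved to a cluster led by Ednrb, Marcksl1 and Ier3, at 114 CPM of Mertk, 57.5 of Pros1 and 852 of Gas6 against 80.3, 42.5 and 605 CPM in the cluster led by Hpgd. In Experiment 2 the finer Hpgd cluster held Gas6 at 699 CPM, below the 757 CPM of the one led by Cnrip1 and Tfrc. Gas6 was also high where Axl was near its median over the 19 clusters, 11.5 CPM, at 504 CPM in the cluster led by Tfrc and Cd36 and at 602 CPM in the one led by Cnrip1 and Cd33, which held Axl at 11.3 and 11.5 CPM. The clusters led by Mmp12 and Slamf8 held little Gas6, at 206 and 227 CPM. In the 4 clusters with the least Axl, 1.26 to 4.35 CPM, Gas6 was low as well, at 141 to 199 CPM. All 4 genes were low in the Prss46 clusters, with Mertk at 22.0 and 15.4 CPM and Gas6 at 141 and 178 CPM.

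**Figure D4:**
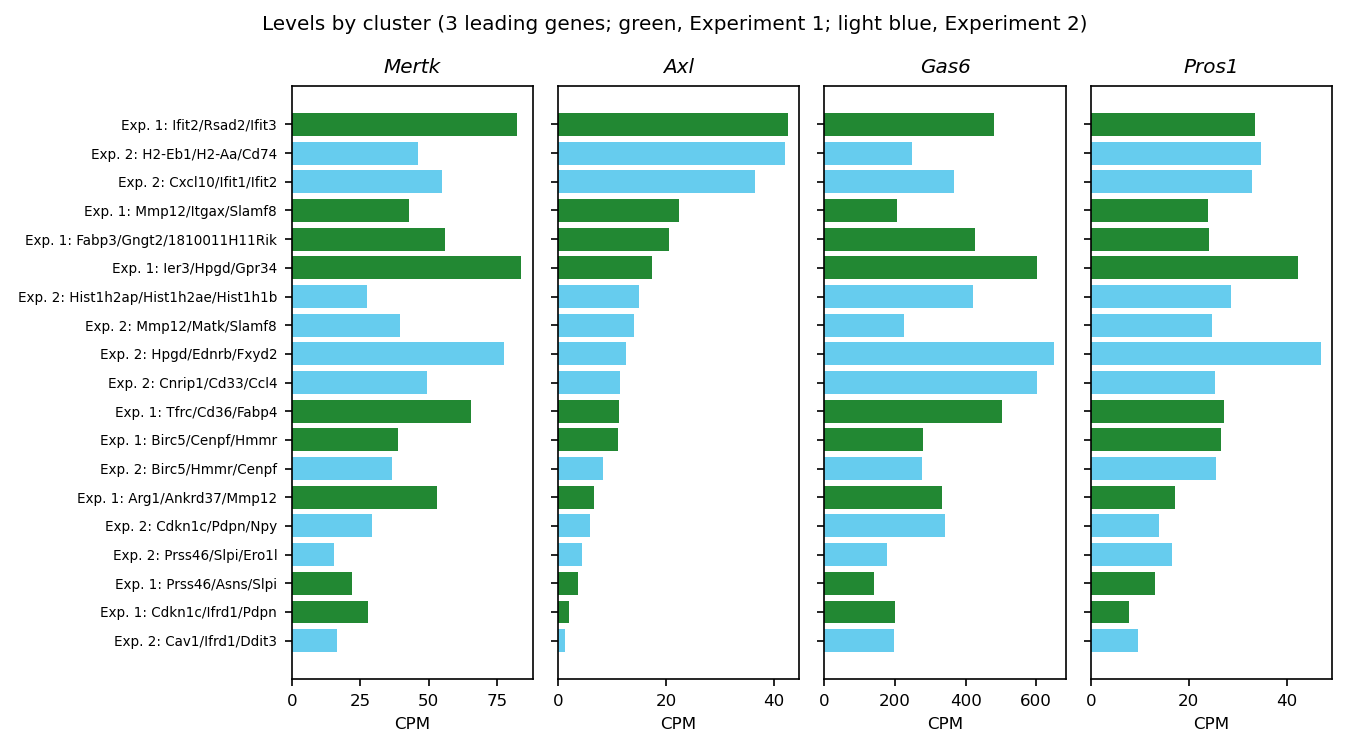
CPM of Mertk, Axl, Gas6 and Pros1 (horizontal axes) in the 19 clusters with macrophage markers, summed over both libraries of an experiment, sorted by Axl and named by their 3 leading genes, green for Experiment 1 and light blue for Experiment 2. Axl is high in the interferon and MHC class II clusters and near 0 in the lowest ones, while Mertk, Gas6 and Pros1 peak in the Hpgd clusters at this resolution.

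The libraries of an experiment fell largely into different clusters. The Hpgd clusters held 4270 non-efferocytic against 155 efferocytic cells in Experiment 1 and 4530 against 50 in Experiment 2, and the interferon clusters 896 and 110 and 470 and 14 cells, while the Tfrc and Cd36 cluster held 304 and 2643 cells and the Cnrip1 and Cd33 cluster 159 and 4501 cells. Clusters of any class were compared that had at least 50 cells of both libraries and at least 1 UMI of the gene in each. For Axl this leaves out the Cav1 and Ifrd1 cluster of Experiment 2, whose 9 UMIs all lay in 1 library. At Leiden resolution 1.0 it leaves out the cluster led by the same genes, with 28 UMIs in 1 library. The direction of Axl in these clusters thus enters none of the counts or medians below. Within the clusters compared the median differences were smaller or turned. For Mertk, 5 of 9 clusters in each experiment had a lower level in efferocytic cells, with median log2 ratios of -0.06 and -0.33. Pros1 was lower in 7 of 9 clusters in both experiments, with medians of -0.14 and -0.26. Axl was lower in 3 of 9 and 3 of 8 clusters, with medians of 0.12 and 0.37, and in the MHC class II cluster it stood at 86.8 CPM in 83 efferocytic cells against 39.9 CPM in 2134 non-efferocytic cells. Gas6 was higher in 5 of 9 and 8 of 10 clusters, with medians of 0.003 and 0.24. In Experiment 1 intervals lay apart in 0 clusters for Mertk. For Axl, Pros1 and Gas6 they did in 1 lower and 1 higher cluster each. In Experiment 2 they lay apart in 2 lower for Mertk, 1 higher for Axl and 1 lower for Pros1. For Gas6 they did in 1 lower and 5 higher. Elsewhere the intervals overlapped, so those directions may be counting error. At Leiden resolution 1.0 the medians were 0.03 and -0.11 for Axl and 0.03 and -0.40 for Mertk, which was then lower in 5 of 13 and 6 of 9 clusters. The sign of the median thus depended on how clusters were drawn for Axl in Experiment 2 and for Mertk in Experiment 1. In both of these cases intervals lay apart at resolution 1.0 in 0 lower clusters and 1 higher cluster. For Pros1 the medians were then -0.12 and -0.21 and for Gas6 0.07 and 0.21. No test was made here, since clusters of 1 library are not replicates.

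Over 37 profiles of a cluster in a library (at least 100 cells each), the genes whose log2(CPM + 1) ran most like that of Axl were the Fc receptors Fcgr1 (Pearson r = 0.89) and Fcgr4 (r = 0.89) and the complement gene C1qc (r = 0.85). Those most like Mertk were Apobec1, Slc12a9 and Prex1 (r = 0.88 each), those most like Gas6 were Man1c1, Rasgrp3 and Nfatc2 (r = 0.88, 0.88 and 0.86) and those most like Pros1 were Slc45a4, Stab1 and Slc9a9 (r = 0.92, 0.89 and 0.88). Among the members, Mertk ran closest to Pros1 (r = 0.83) and Gas6 least like Axl (r = 0.51). The profiles share 4 libraries and their depths, and 7097 genes were compared.

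The other bridging molecules and phosphatidylserine receptors moved in both directions. Of 17 tested from a list of 21, 5 were higher and 4 lower in efferocytic macrophages, with a median log2 fold change of 0.09 against -0.02 over all genes. The share called in either direction was 52.9%, against 38.9% of all genes. Cd300lf, an inhibitory receptor that binds phosphatidylserine, rose 5.58-fold, from 4.62 and 5.65 to 25.02 and 28.2 CPM (log2 fold change 2.48, SE 0.094, edgeR adjusted p = 9.23e-06). Cd36, a scavenger receptor for oxidized lipid, rose 3.25-fold, from 476 and 556 to 1440 and 1669 CPM (edgeR adjusted p = 9.4e-05). Both lay outside the range of the other group in every library. Itgav, Mfge8 and Lrp1 were the other genes called higher. Mfge8 is the bridge to the integrin that Itgav belongs to, and had a log2 fold change of 0.66. Stab1, C1qa, Scarf1 and Cd300lb were called lower. Timd4, Havcr1, Adgrb1 and Megf10 did not reach the count filter.

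Of the 6 genes of the vitamin K cycle and gamma-carboxylation, which make the Gla domains of Gas6 and Pros1 able to bind, 1 was called, higher, or 16.7% against 38.9% of all genes. This was Vkorc1l1, a vitamin K epoxide reductase, up from 13.5 and 16.5 to 20.5 and 26.6 CPM (log2 fold change 0.76, SE 0.080, edgeR adjusted p = 0.000408). The carboxylase gene Ggcx had a log2 fold change of -0.04 (edgeR adjusted p = 0.848). Of the 5 genes of receptor shedding 3 were called, all lower, against 19.0% of all genes called lower. The tissue inhibitor of metalloproteinases Timp3 fell by 1.55 on the log2 scale (edgeR adjusted p = 0.000486), at 3.27 and 2.44 against 1.14 and 0.696 CPM, and Rhbdf1 fell by 1.16 (edgeR adjusted p = 0.00134). Adam17, the protease that cleaves Mertk from the cell surface, fell by 0.28 (edgeR adjusted p = 0.0497), just under the threshold. Timp3 inhibits Adam17, so this list holds members of opposed function.

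Signaling genes below the receptors were all tested, 17 of 17, and 6 were called, all higher. That is 35.3% of the list, where 38.9% of all genes were called in either direction and 19.9% higher. Elmo1, a partner of Dock1 in Rac activation, had a log2 fold change of 0.47 (SE 0.11, edgeR adjusted p = 0.0130) and Ptk2, the focal adhesion kinase gene, of 0.44 (SE 0.13, edgeR adjusted p = 0.0259). Neither passed without the replicate block (edgeR adjusted p = 0.0645 and 0.167) or with free RNA removed (edgeR adjusted p = 0.104 and 0.147). For Elmo1 most of this came from Experiment 2, at 29.97 and 46.5 CPM against 33.1 and 35.1 CPM in Experiment 1. The median of the list was 0.15 against -0.02 over all genes. Of the 6 reported genes of interferon receptors and feedback, 2 were called, lower, or 33.3% against 19.0% of all genes called lower. Socs3, an inhibitor of cytokine signaling, fell by 1.68 on the log2 scale (edgeR adjusted p = 0.00302), at 4.14 and 2.26 against 0.728 and 1.04 CPM, and Twist1, at under 1 CPM, fell by 0.92 (edgeR adjusted p = 0.0201). The receptor gene Ifnar1 had a log2 fold change of 0.11 and did not pass (edgeR adjusted p = 0.346).

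Of the 8 reported transcription factor genes known to act on Mertk or Axl, 2 were called higher and 1 lower, or 37.5% in either direction, near the 38.9% of all genes. Nr1h3, which encodes the sterol receptor LXR-alpha that is known to induce Mertk, rose 2.14-fold, from 17.0 and 19.0 to 35.8 and 35.7 CPM (log2 fold change 1.098, SE 0.088, edgeR adjusted p = 0.000141). Mertk itself was lower in CPM but 1.25 and 1.33 times as high per cell of any class in Experiments 1 and 2. A link between these genes was not tested. Rxrb, which encodes a retinoid X receptor, a partner of LXR, fell by 0.35 on the log2 scale (edgeR adjusted p = 0.0178), at 37.0 and 37.7 against 29.0 and 25.5 CPM. Pparg was the other gene called higher. Of the 3 proposed further ligands 1 was tested, Lgals3, the galectin-3 gene, and it rose 1.64-fold, from 9416 and 11520 to 14520 and 17414 CPM (edgeR adjusted p = 0.0234). Tub and Tulp1 did not reach the count filter. Counted per cell, the direction of Rxrb turned (log2 fold change 0.27, edgeR adjusted p = 0.384), and it did not pass without the replicate block (edgeR adjusted p = 0.0826) or with free RNA removed (edgeR adjusted p = 0.0788). In cells of 10000 to 20000 UMIs Timp3 (edgeR adjusted p = 0.1400) and Lgals3 (edgeR adjusted p = 0.1401) did not pass.

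**Figure D5:**
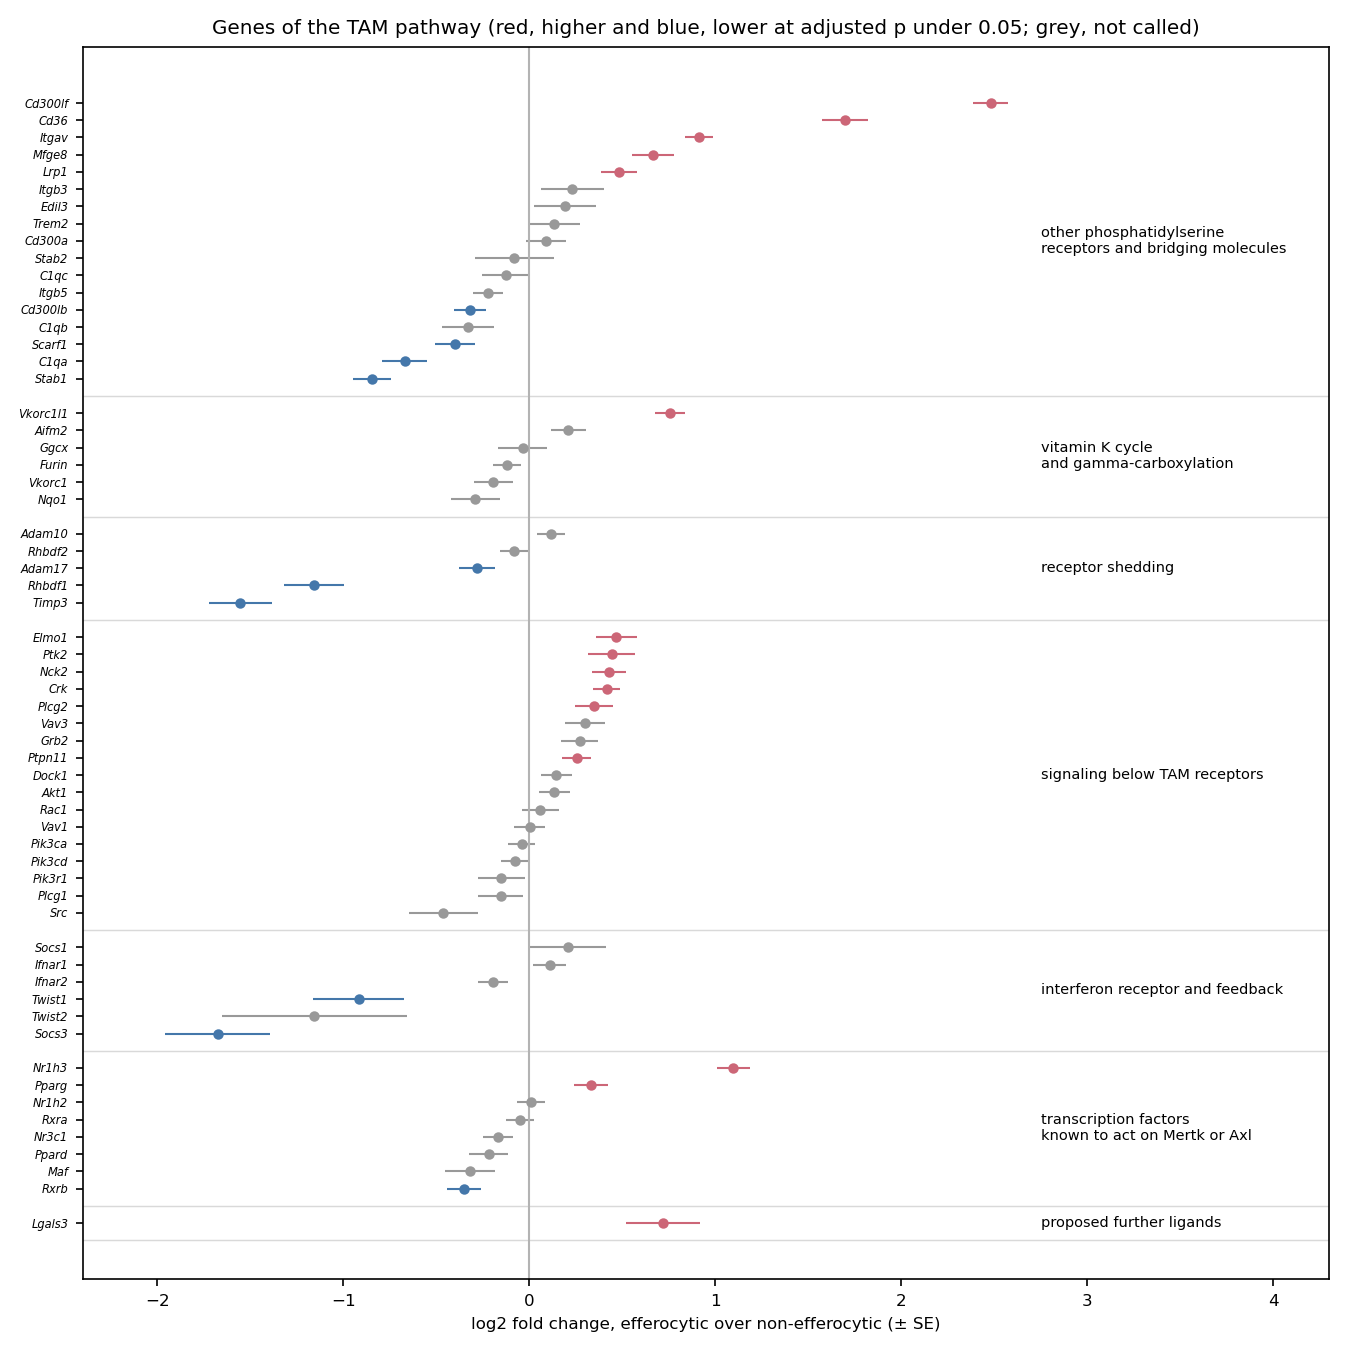
Log2 fold change (horizontal axis, efferocytic over non-efferocytic, with standard error) of the 60 tested and reported genes of the 7 lists, red where higher, blue where lower and grey where the adjusted p was not under 0.05. Cd300lf and Cd36 lie farthest to the right and Socs3 and Timp3 farthest to the left.

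Genes expected in RM1 cells summed to 49.8 and 52.5 CPM in the non-efferocytic against 40.8 and 52.1 CPM in the efferocytic libraries, with Krt8 at 0 in both libraries of Experiment 1 and Cdh1 at 0 in the non-efferocytic library of Experiment 1. These sums include the fibroblast-like clusters and the one led by Nupr1 and Socs3. Cells with at least 1 UMI of the list made up 27.3% and 22.6% of non-efferocytic against 37.6% and 38.2% of efferocytic cells, which held more UMIs. In cells without any UMI of that list the log2 fold change of Axl was -0.44 (edgeR adjusted p = 0.0247) and that of Pros1 -0.51 (edgeR adjusted p = 0.00456), while Mertk at -0.26 lay at the threshold (edgeR adjusted p = 0.05004). In efferocytic libraries Axl stood at 12.3 and 8.76 CPM in cells with such a UMI and at 18.1 and 12.5 CPM in cells without, and the cells with one held more UMIs, a median of 20456 and 19087 against 15283 and 16548. The part of RM1 RNA in these levels was not tested further.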

How the data were processed

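Single-cell libraries (10x Genomics 3′ v3.1) of F4/80+ BM macrophages were aligned and counted by the authors with Cell Ranger (3.0.0 in the methods and submitters' notes; 3.0.0 in the file headers of Experiment 1 and 3.1.0 in those of Experiment 2) on mm10, and the deposited matrices hold raw UMI counts for all barcodes. The 5 members and all gene lists were chosen with earlier results of these data known. Experiment and group came from the labels.

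Barcodes of 200 or more genes, 1000 or more UMIs and no more than 10% mitochondrial UMIs were kept and their counts summed per library. Sums were tested with edgeR 4.0.16 (TMM, filterByExpr, quasi-likelihood F-test, experiment as a block, Benjamini-Hochberg over 13869 genes, R 4.3.3), since cells are not replicates. The labels give both libraries of an experiment the same number, and deviations from the group means correlated between them (r = 0.786 over 7097 genes). With 2 libraries per group these deviations mirror each other, so this is 1 value for both experiments. The methods state at least 3 independent mice per group over all experiments with BM macrophages and the study calls both experiments independent. The mice behind each library are not given, so p-values measure the spread between these libraries and not between mice. The block leaves few degrees of freedom with 4 libraries, so edgeR drew much of each gene's spread from other genes (6.99 prior degrees of freedom). On simulated counts for 13791 genes of this comparison, 88 of 100 genes changed 2-fold and 66 of 100 changed 1.5-fold were called, with 8 false calls. The simulation gave all genes 1 common dispersion (0.00749), changed few genes and made the same changes in both experiments. The data differ in these points, so the rates cannot be carried over to them. CPM are UMIs per 1000000 UMIs in cells, without the TMM scaling of the tested fold changes. Poisson and exact binomial intervals (95%) cover counting error only. Free RNA was the sum of barcodes under 100 UMIs.

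Each experiment was clustered with scanpy 1.11.5 (5000 variable genes, 20 principal components, Leiden resolution 0.5). A cluster with at least 3 markers of a class among its 10 leading genes took that name, and one under 33.3% of the median UMIs of its library stayed unnamed. One with summed macrophage markers of at least 10000 CPM was macrophage-like unless any marker was among those 10 genes. Cycling markers were ignored in these rules, and the thresholds were set after seeing the clusters. No doublet caller was run, and an alternative left out cells above the 95th percentile of UMIs. Named were the members, the 2 called genes of each list with the largest change (mean level 1 CPM or more) and the 3 genes most like each member (mean of at least 10 CPM). Other genes of the lists were named after their values were seen, and 2 list genes are not reported here.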

Additional observations from a re-analysis of the deposited data

Results flagged for a closer look

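On the CPM scale the Gas6 level went in opposite directions in the 2 experiments. The log2 ratio of efferocytic over non-efferocytic CPM was -0.14 in Experiment 1 and 0.35 in Experiment 2. No ratio of a single experiment was computed with TMM scaling. The difference between the experiments was not tested, since each holds 1 library per group. Among cells of 10000 to 20000 UMIs both experiments had more Gas6 in efferocytic cells, at 482 against 426 CPM and at 569 against 334 CPM, whereas among cells of 5000 to 10000 UMIs they again went opposite ways, at 633 against 658 CPM and at 743 against 580 CPM.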

How the results depend on the processing

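Of 22 alternatives, Axl lost its call in 7 and lay at 0 in 1 of them, per cell, being lower in the rest. Mertk kept its call as lower in 7, lost it in 12 and turned in 3. Pros1 kept its call in 17, lost it in 3 and turned in 2, and Gas6 was higher in all. For Mertk the log2 fold change, from edgeR unless named, no longer passed without the replicate block (-0.24), with DESeq2's own estimate (-0.25), with no gene filter (-0.24), with Cell Ranger's older cell calling (-0.25), with at least 5000 UMIs per cell (-0.24), with 10% free RNA removed (-0.28), in cells without an RM1-list UMI (-0.26), without clusters of few UMIs (-0.25) and in cells of 10000 to 20000 UMIs (-0.14), and it turned to 0.36 per cell and to 0.26 per cell without clusters of few UMIs. Axl no longer passed without the block (-0.59), per cell (-0.00069, and -0.12 without clusters of few UMIs) or with free RNA removed (-0.70). Pros1 turned to 0.12 and 0.0090 in these per-cell fits, and Gas6 passed in both (0.83 and 0.73) and in cells of 10000 to 20000 UMIs (0.47). Of the 11 list genes named by rule, 3 lost their call without the block and 3 of 10 with free RNA removed (Elmo1, Ptk2 and Rxrb in both), 2 in cells of 10000 to 20000 UMIs (Timp3, Lgals3), and 1 each with DESeq2, with library totals and in cells without an RM1-list UMI (Ptk2), without the cells of most UMIs (Timp3) and per cell (Rhbdf1). All 11 lost it without the non-efferocytic library of either experiment, 8 when the efferocytic one of Experiment 2 was left out and 1 when that of Experiment 1 was. Rxrb turned to 0.27 per cell and to 0.16 per cell with clusters of few UMIs left out. The cause was not tested.

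Leaving out 1 library at a time, with no block, gave -0.53 to 0.019 for Mertk, which turned without the efferocytic library of Experiment 2, -0.91 to -0.32 for Axl, -0.61 to -0.38 for Pros1 and 0.10 to 0.34 for Gas6. Axl and Pros1 passed only without the efferocytic library of Experiment 1 (edgeR adjusted p = 0.0143 and 0.0211), and Mertk and Gas6 in none of the 4 (edgeR adjusted p from 0.0728 and 0.190). With all 4 libraries and no block the log2 fold changes were -0.24 for Mertk, -0.59 for Axl, -0.50 for Pros1 and 0.21 for Gas6. The number of genes called was 0 to 2933 with 1 library left out, against 2358 with all 4 and no block and 5397 with the block, and the 2933 came when the efferocytic library of Experiment 1 was left out. The count of 0 came without the non-efferocytic library of Experiment 2, where 3494 genes had an unadjusted edgeR p under 0.05, and 2 were called without that of Experiment 1 and 1204 without the efferocytic library of Experiment 2. In these fits an arm of 1 library is assumed to vary like the other group, and fewer samples enter. Genes called numbered 2358 without the replicate block, 3338 with DESeq2, 3026 at a mean of at least 10 CPM, where fewer genes were tested, 2473 with free RNA removed and 9650 per cell without clusters of few UMIs. With the block left out, the calls of Mertk and Axl were lost and those of Pros1 and Gas6 did not change.

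The mean difference in the share of cells with a UMI, efferocytic minus non-efferocytic, moved from 8.22 to -4.78 percentage points for Mertk on thinning (5.55 for at least 2 UMIs), from -0.68 to -2.85 for Axl (0.457), and from 2.00 to -5.14 for Pros1 (0.728). For Tyro3 it was -0.0242 and moved to 0.00595 for at least 2 UMIs. The median log2 ratio of Axl within clusters, as the mean of the experiments, moved from 0.25 to -0.036 at Leiden resolution 1.0. Its sign changed in Experiment 2 alone. With 27 UMIs of Tyro3 in all, depth limits any statement on that receptor, and with 2 libraries per group a permutation test cannot give a p below 0.333. Fits on barcodes not shared between the libraries of Experiment 2, without clusters of few UMIs (also per cell), without neutrophil-like and fibroblast-like clusters and in cells of 10000 to 20000 UMIs were added after seeing the data.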
